A study of Homo sapiens with 8 samples.

Results

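The coverage of DNA around annotated gene starts was described here at the 6000 positions of a metagene profile, a curve in which the reads over many genes are summed after the genes have been lined up at their starts. These were 6000 of the 34957 regions in the deposited tables of the OGAP-seq experiment, which also hold 19957 promoter windows, 6000 positions around gene ends and 3000 bins upstream of, over and downstream of exons. Positions were taken by their place in the profile alone. Earlier results of these data were known when the positions and the measures were chosen, and the p-values do not allow for this. Position 0 is the middle of the profile, negative positions lie upstream of the start and positive ones downstream, in the direction of transcription. The deposited table does not say which of its bins is the start, so the middle bin was taken as such.

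The DNA came from RPE1, a human cell line that grew from retinal pigment epithelium and was immortalised with telomerase (hTERT). In OGAP-seq, fragments that carry oxidative base damage are pulled down before sequencing, and the study asked how depletion of NuMA (also labelled TDIF), a protein of the nucleus that gathers at the spindle poles in mitosis, changes that damage across the genome. The groups were NuMA-depleted cells after doxycycline with pull-down (KD OGAP), wild-type cells that had no doxycycline with pull-down (WT OGAP), and DNA of the same kinds of cells without pull-down (KD input and WT input), with 2 libraries in each of the 4 groups. Doxycycline was given to the KD cells alone, so wherever KD and WT are compared the drug and the depletion cannot be told apart. The labels do not say whether libraries of 1 group came from separate cultures, and each p-value measures a spread between libraries that may be technical.

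Guanine is the base most easily oxidised in DNA, and 8-oxoguanine is its main oxidation product. In cells it is removed by base excision repair, in which the glycosylase OGG1 cuts out the damaged base and leaves a site without a base that later enzymes fill. Gene starts differ from most of the genome in ways that bear on both damage and its measurement. Many lie in CpG islands, stretches rich in G and C, and at active genes the DNA just upstream of the start carries few nucleosomes while the polymerase often pauses just downstream of it.

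Each position of the profile adds up DNA of very different composition. The RefSeq table of promoter sequences (GRCh38.p14, 250 bases before to 50 after each start) could be joined by position to 10963 of the 19957 promoter windows (54.9%). The 3 promoters shown are those at the 10th, 50th and 90th percentile of G or C content among the joined ones, so that the range behind 1 position can be read directly. Each is given 5′ to 3′ on the coding strand with G, the base that is oxidised, in capitals.
AVIL: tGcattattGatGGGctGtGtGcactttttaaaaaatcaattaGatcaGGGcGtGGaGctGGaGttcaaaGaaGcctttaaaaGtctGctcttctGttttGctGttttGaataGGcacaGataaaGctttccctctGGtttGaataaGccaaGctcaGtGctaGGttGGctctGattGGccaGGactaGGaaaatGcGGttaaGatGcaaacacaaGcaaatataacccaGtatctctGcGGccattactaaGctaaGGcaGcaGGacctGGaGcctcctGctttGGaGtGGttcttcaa
ALG11: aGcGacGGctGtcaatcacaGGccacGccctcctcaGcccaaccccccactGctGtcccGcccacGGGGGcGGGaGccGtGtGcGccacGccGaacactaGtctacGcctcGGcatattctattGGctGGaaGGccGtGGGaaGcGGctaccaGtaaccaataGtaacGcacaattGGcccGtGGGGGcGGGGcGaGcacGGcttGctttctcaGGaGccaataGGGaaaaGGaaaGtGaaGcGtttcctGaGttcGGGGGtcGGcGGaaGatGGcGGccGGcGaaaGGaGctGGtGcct
ABAT: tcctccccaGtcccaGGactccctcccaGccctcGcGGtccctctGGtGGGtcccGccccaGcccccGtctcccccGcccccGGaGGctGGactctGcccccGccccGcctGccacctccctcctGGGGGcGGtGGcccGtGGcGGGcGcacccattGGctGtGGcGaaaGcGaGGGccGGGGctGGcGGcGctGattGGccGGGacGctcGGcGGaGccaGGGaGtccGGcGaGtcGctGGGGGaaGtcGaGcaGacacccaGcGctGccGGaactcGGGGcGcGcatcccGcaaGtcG

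The promoter of AVIL, which encodes the actin-binding protein advillin, lies at chr12:57818685-57818984 on the minus strand and has 44.3% G or C, with 74 G and 3 CpG dinucleotides in its 300 bases. The promoter of ALG11, a mannosyltransferase of the endoplasmic reticulum that builds the sugar precursor for N-glycosylation, lies at chr13:52012148-52012447 on the plus strand and has 63.3% G or C, with 101 G and 26 CpG. That of ABAT, the transaminase that breaks down the neurotransmitter GABA, lies at chr16:8674367-8674666 on the plus strand and has 76.3% G or C, with 106 G and 32 CpG. Each C pairs with a G on the other strand, which can be oxidised as well, and AVIL, ALG11 and ABAT hold 59, 89 and 123 C. Single windows held few reads. The AVIL window had 38 and 38 reads in KD OGAP, 44 and 44 in WT OGAP, 48 and 40 in KD input, and 59 and 43 in WT input. The ABAT window had 34 and 27 reads in KD OGAP, 17 and 18 in WT OGAP, 51 and 40 in KD input, and 47 and 45 in WT input. The ALG11 window held between 0 and 5 reads in every library, which is not typical of the joined windows. Even those poorest in G or C averaged at least 15.1 reads in each library. Sums over many genes carry the values that follow.

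Depth set the precision of a position. The promoter windows held 560174 and 449833 reads in KD OGAP, 368593 and 397173 in WT OGAP, 683567 and 645276 in KD input, and 727901 and 771138 in WT input. The lowest summed coverage at any position was between 19543 and 34542, so counting error at a single position was at most 0.538 to 0.715% by library. These figures cover counting error only, and neighbouring positions share reads. Each profile was divided by the mean of its own outermost 1000 positions on each side, and a level of 1 therefore means the coverage far from the start in the same library. A level says nothing about how much damage a whole library held.

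Coverage near gene starts was lower in pulled-down DNA than in DNA without pull-down. At position 100 the level was 1.011 and 0.877 in KD OGAP, 0.774 and 0.743 in WT OGAP, 1.232 and 1.172 in KD input, and 1.248 and 1.413 in WT input. All 4 inputs peaked there, both WT OGAP libraries and the second KD OGAP library dipped, and the first KD OGAP library was nearly level. No OGAP library reached the lowest input.

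**Figure D1:**
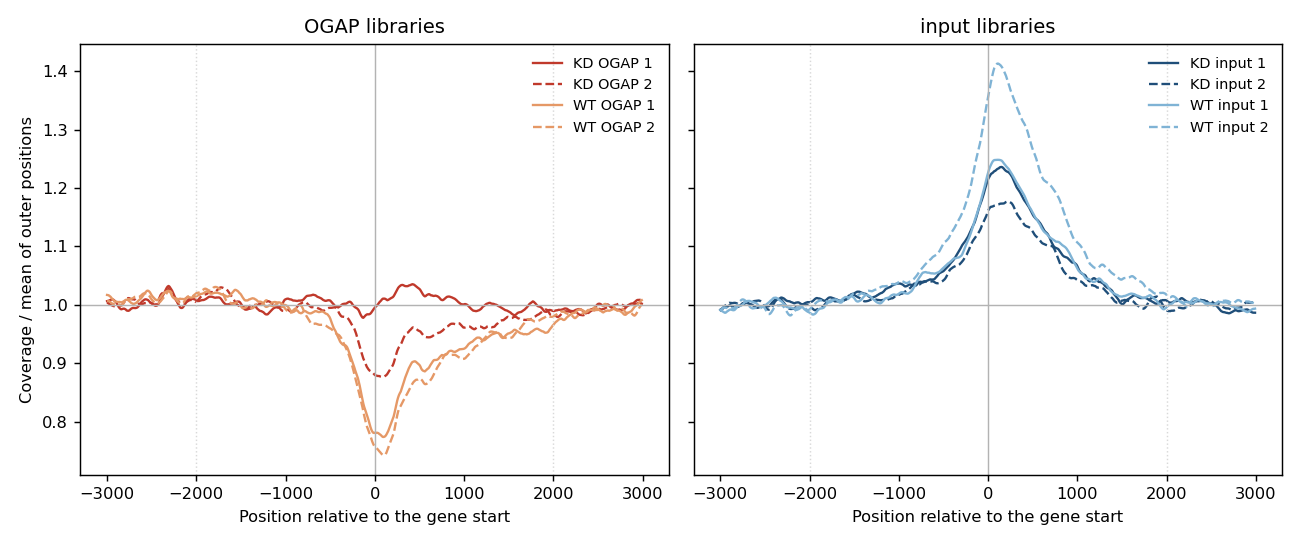
Coverage around gene starts in each of the 8 libraries, as a running mean over 51 positions divided by the mean of the outermost 1000 positions on each side (vertical axis), against position relative to the start (horizontal axis). Dotted lines mark 2000 positions on each side, the inner edge of the outer stretches. Inputs rise to 1.177 to 1.413, while both WT OGAP libraries fall to 0.743 and 0.774 and the first KD OGAP library stays between 0.978 and 1.035 within 2000 positions.

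The depth of the centre was measured over the 1000 positions around the start. This central level was 1.008 and 0.933 in KD OGAP, 0.861 and 0.841 in WT OGAP, 1.164 and 1.126 in KD input, and 1.168 and 1.276 in WT input. The 4 OGAP libraries averaged 0.911 ± 0.0757 and the 4 inputs 1.184 ± 0.0646 (SD), a difference of -0.273. The groups did not overlap, and the exact two-sided permutation test over libraries gave p = 0.0286, the smallest that 4 against 4 libraries allow (70 arrangements). Within KD alone the difference was -0.174 and within WT alone -0.371. Neither overlapped, though 2 against 2 libraries cannot give an exact p below 0.333.

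Closer to the start the gap was wider. Over the innermost 200 positions the level was 0.995 and 0.883 in KD OGAP, 0.786 and 0.763 in WT OGAP, 1.208 and 1.155 in KD input, and 1.220 and 1.352 in WT input. The OGAP mean of 0.857 ± 0.106 differed by -0.377 from the input mean of 1.234 ± 0.0836 (SD, n = 4 each; exact permutation p = 0.0286). On the shoulders, between 500 and 2000 positions away on both sides, the levels were much nearer to 1. They were 1.002 and 0.986 in KD OGAP, 0.970 and 0.966 in WT OGAP, 1.037 and 1.027 in KD input, and 1.036 and 1.064 in WT input, with no overlap between OGAP and input (difference -0.0598, exact permutation p = 0.0286). The shoulder is the only level of the 3 that changed sign with the scaling: divided by the mean of all 6000 positions in place of the outer ones, it was 0.0152 higher in OGAP than in input.

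The 6 shape measures of this comparison all had the same smallest possible p, and the Benjamini-Hochberg adjusted p over them was likewise 0.0286. Leaving out any 1 library kept the sign of every one of the 6, but 3 against 4 libraries cannot give an exact p below 0.0571. The p therefore does not rank the measures, and the sizes and the separation of the libraries carry the comparison.

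Counted position by position, OGAP lay below input without overlap of the libraries at 3586 of the 6000 positions (59.8%), and above it at 546 (9.1%). Positions share reads, so these counts have no test. The longest unbroken run below input covered 2885 positions, from -1181 to 1703, and took in all 1000 central positions. It reached farther downstream than upstream. Within 2000 positions of the start, 1911 of the positions downstream and 1282 of those upstream were lower in OGAP. Of the positions above input, 369 were in the outer stretches.

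The extremes sat just downstream of position 0 in most libraries. The lowest smoothed level was 0.877 at position 94 in the second KD OGAP library, 0.774 at position 92 in the first WT OGAP library and 0.743 at position 101 in the second. The input peaks were 1.236 at position 147 and 1.177 at position 221 in KD input, and 1.248 at position 105 and 1.413 at position 107 in WT input. The dips of the 3 OGAP libraries and the peaks of the WT inputs thus lay within 92 to 107, and the KD input peaks lay farther downstream. These places are loosely fixed, because the curves were flat near their extremes. Levels within 0.01 of the extreme ran from -49 to 159 in the second KD OGAP library, from -31 to 149 and from 33 to 143 in WT OGAP, from 52 to 235 and from 25 to 289 in KD input, and from 28 to 196 and from 65 to 169 in WT input. All of these spans share the stretch from 65 to 143, so the order of the positions is not resolved.

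The first KD OGAP library had no such dip. Its largest departure from 1 was a shallow rise to 1.035 at position 420, and its lowest level was 0.978 at position -131. The libraries labelled KD OGAP therefore stood apart from each other in shape, and every KD OGAP value is given for each library.

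Dips were narrower than peaks. The run of positions at or beyond 0.5 of the extreme deviation covered 495 positions in the second KD OGAP library, and 587 and 668 in WT OGAP. In the inputs it covered 901 and 992 positions in KD and 826 and 873 in WT. The upstream edges of these runs were close together, at -186 in the second KD OGAP library, -218 and -212 in WT OGAP, -221 and -231 in KD input, and -190 and -189 in WT input. The downstream edges were at 308 in the second KD OGAP library, 368 and 455 in WT OGAP, 679 and 760 in KD input, and 635 and 683 in WT input. The difference in width was thus nearly all downstream of the start, with no test made of it. In WT OGAP, 60.6% and 61.1% of the summed deviation over the central 4000 positions fell within 500 positions of the start, against 59.5% and 61.2% in KD input and 61.1% and 59.1% in WT input. By this measure, which counts the long tails, dips and peaks were about equally concentrated under this scaling. Scaled by the upstream or the downstream outer stretch alone, the WT OGAP share moved by more than these libraries differ. The input shares were not taken in that way. The second KD OGAP library had 60.8%, and no share is meaningful for the first, whose summed deviation was close to 0.

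The tails of WT OGAP were one-sided. At position -500 the level was 1.007 and 0.995 in KD OGAP, 0.977 and 0.960 in WT OGAP, 1.058 and 1.042 in KD input, and 1.064 and 1.105 in WT input. At position 500 it was 1.027 and 0.955 in KD OGAP, 0.897 and 0.874 in WT OGAP, 1.155 and 1.125 in KD input, and 1.158 and 1.266 in WT input. Coverage in WT OGAP was still 0.925 and 0.908 at position 1000 and 0.951 and 0.943 at position 1500, whereas at -1500 it was 1.018 and 0.998. The upstream side had returned to the outer level by that distance and the downstream side had not.

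Asymmetry was measured as the mean level downstream minus that upstream. Over the nearest 500 positions on each side it was 0.0265 and -0.0313 in KD OGAP, -0.0512 and -0.0725 in WT OGAP, 0.0895 and 0.0677 in KD input, and 0.0997 and 0.162 in WT input. All inputs leaned to the downstream side, both WT OGAP libraries were lower on that side, and the KD OGAP libraries had opposite signs. OGAP averaged -0.0321 ± 0.0425 and input 0.105 ± 0.0406 (SD, n = 4 each), a difference of -0.137 without overlap (exact permutation p = 0.0286). Within KD it was -0.0810 and within WT -0.193.

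Between 500 and 2000 positions away the asymmetry was -0.00357 and -0.0364 in KD OGAP, -0.0686 and -0.0648 in WT OGAP, 0.0254 and 0.0212 in KD input, and 0.0343 and 0.0634 in WT input. Here every OGAP library was lower downstream and every input higher downstream, by -0.0434 ± 0.0302 in OGAP and 0.0361 ± 0.0190 in input (SD, n = 4 each; exact permutation p = 0.0286). Even the outermost stretches were not equal. The downstream stretch over the upstream one was 0.990 and 0.986 in KD OGAP, 0.976 and 0.980 in WT OGAP, 0.997 and 0.998 in KD input, and 1.003 and 1.010 in WT input (difference of means -0.0191, exact permutation p = 0.0286). The outer level used for scaling thus differed by side in each OGAP library. In the second WT input library it differed about as much as in the first KD OGAP library, in the other direction.

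**Figure D2:**
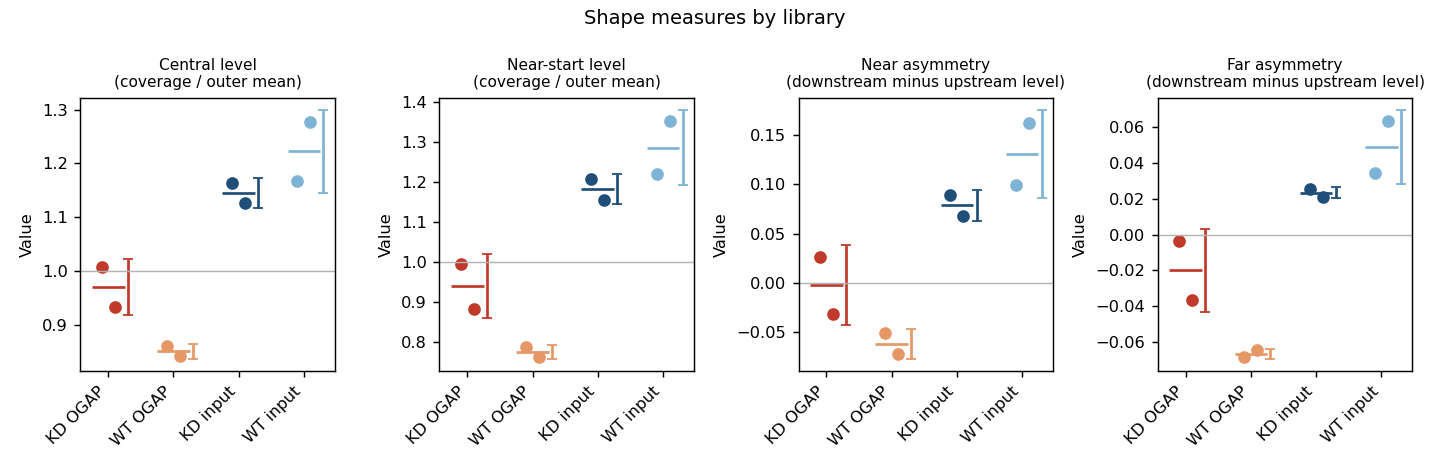
The central level over 1000 positions, the near-start level over 200, and the near and far asymmetry (vertical axes, in units of the outer level), for each library as a point, with the group mean as a line and the SD of 2 libraries as a bar. OGAP and input separate in all 4 panels, and the KD OGAP libraries lie apart from each other, at 1.008 and 0.933 for the central level.

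Dividing each OGAP profile by the mean input profile of its own state removed the input peak and gave 4 dips. The lowest ratio was 0.836 at position 29 and 0.730 at position 101 in KD, and 0.582 at position 100 and 0.558 at position 102 in WT. The first KD OGAP library, flat on its own scale, thus dipped relative to input, because the inputs rise where it does not. The widths at 0.5 of the lowest ratio's deviation were 974 and 945 positions in KD and 985 and 971 in WT. The dips had edges at -265 and 708 and at -221 and 723 in KD, and at -247 and 737 and at -242 and 728 in WT. The depth of the dip thus varied more between libraries than its width. Since libraries of a state share their inputs, the widths were also taken against each input singly. They ran between 921 and 1025 positions in KD and between 911 and 1052 in WT, and the lowest ratio between 0.712 and 0.856 in KD and between 0.526 and 0.620 in WT. The place of the lowest ratio in the first KD OGAP library depended on the input, at position 142 against the first KD input and at 22 against the second. In the other 3 OGAP libraries it lay between 97 and 102 against either input.

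The ratio also leaned downstream. Between 500 and 2000 positions it averaged 0.960 and 0.929 downstream in KD and 0.874 and 0.873 in WT, against 0.984 and 0.984 upstream in KD and 0.980 and 0.975 in WT. Upstream the 4 ratios lay within 0.975 to 0.984, and downstream they spread from 0.873 to 0.960. KD ratios were above WT ratios without overlap on both sides, by little upstream.

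**Figure D3:**
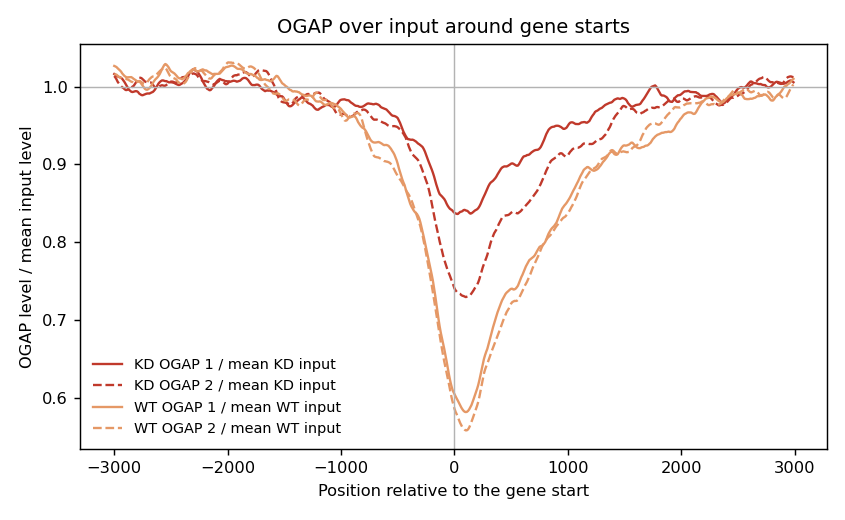
Each OGAP profile divided by the mean input profile of the same state (vertical axis), against position relative to the gene start (horizontal axis). The lowest ratios are 0.836 and 0.730 in the KD libraries and 0.582 and 0.558 in the WT libraries, and all 4 curves return more slowly downstream than upstream.

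The effect of NuMA depletion on the pulled-down profile was measured by KD minus WT within OGAP. The central level averaged 0.971 ± 0.0525 in KD OGAP and 0.851 ± 0.0138 in WT OGAP (SD, n = 2 each), a difference of 0.119. Both KD libraries were above both WT libraries, and the exact permutation p was 0.333, the smallest possible. The near-start level was 0.165 higher, the near asymmetry 0.0594 higher and the far asymmetry 0.0467 higher in KD OGAP than in WT OGAP, each without overlap and with the same exact permutation p of 0.333. The shoulder level was 0.0259 higher in KD OGAP, also without overlap, but the difference was -0.00729 when scaled by all 6000 positions. The size depended on which KD library was kept. Without the first KD OGAP library the central difference was 0.0822, the near-start difference 0.108, the near asymmetry difference 0.0306 and the far asymmetry difference 0.0303. Without the second KD OGAP library they were 0.156, 0.221, 0.0883 and 0.0631.

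Along the profile, the mean level of KD OGAP exceeded that of WT OGAP most at position 110, where it was 0.944 in KD and 0.759 in WT, a difference of 0.185. The first KD OGAP library alone exceeded the WT mean by at most 0.252, at position 96, and the second by 0.119, at position 112. The difference was at or above 0.5 of its peak from -223 to 641, so it too was longer downstream. KD OGAP was higher than WT OGAP without overlap at 3340 positions (55.7%) and lower at 775 (12.9%). The higher positions held an unbroken run of 2590, from -881 to 1708, with all 1000 central positions, and 489 of them were in the outer stretches. Leaving out a library can only keep or raise such a count. The count of lower positions was 1560 without the second KD OGAP library, 1193 without the first WT OGAP library and 1337 without the second.

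In the inputs the same contrast ran the other way. The central level averaged 1.145 ± 0.0270 in KD input and 1.222 ± 0.0764 in WT input (SD, n = 2 each), a difference of -0.0772 without overlap (exact permutation p = 0.333). The near-start level differed by -0.104, the near asymmetry by -0.0524 and the far asymmetry by -0.0256, also without overlap, while the shoulder level overlapped (-0.0178, exact permutation p = 0.667, and 0.00354 when scaled by all 6000 positions). These values rested on the second WT input library, the one with the tallest peak. Without it the central difference was -0.0232, the near-start difference -0.0379, the near asymmetry difference -0.0211 and the far asymmetry difference -0.0111. Without the first WT input library the 4 differences were -0.131, -0.170, -0.0837 and -0.0401.

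Along the profile, KD input lay below WT input most at position 85, where the difference was -0.129. It was lower without overlap at 2434 positions (40.6%) and higher at 676 (11.3%). The longest lower run covered 710 positions, from -165 to 544, and 791 of the 1000 central positions were lower. Leaving out the first KD input library moved the count of lower positions to 3712, and leaving out the first WT input library moved it to 4044. The count of higher positions was 1328 without the second KD input library, 1221 without the first WT input library and 1433 without the second.

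The KD difference in OGAP exceeded that in input by 0.197 for the central level, 0.269 for the near-start level, 0.112 for the near asymmetry and 0.0723 for the far asymmetry. For these 4 the exact permutation p, from the 36 ways of exchanging the states within OGAP and within input, was 0.0556, the smallest this design allows and above 0.05. For the shoulder level the excess was 0.0437 (exact permutation p = 0.111), and it was -0.0108 when scaled by all 6000 positions. On average the profile of KD OGAP was thus nearer to level than that of WT OGAP, and that of KD input nearer to level than that of WT input. Leaving out the second WT input library lowered the central excess to 0.143, and leaving out the first KD OGAP library lowered it to 0.159.

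On top of the broad dip or peak the curves carried small ripples. After removal of a running mean over about 500 positions, their SD was 0.677% and 0.894% of the outer level in KD OGAP, 1.04% and 1.16% in WT OGAP, 0.717% and 0.676% in KD input, and 0.887% and 1.23% in WT input. Their autocorrelation fell to 0.5 at lags of 54 to 106 positions and to 0 at 96 to 205. Past the low point that followed, no library's autocorrelation rose above 0.184 at lags up to 599 positions. That value, in the second KD OGAP library, was at lag 599, the end of the search, so it does not mark a peak. No regular spacing was read from these values, and a spacing shorter than a read would be blurred. Beyond 500 positions from the start, over 4001 positions that share reads with their neighbours, ripples correlated at 0.0625 to 0.419 between pairs of OGAP libraries, 0.107 to 0.375 between pairs of inputs and -0.144 to 0.463 between an OGAP and an input library. The medians of these pairs were 0.297, 0.249 and 0.186. Ripples are autocorrelated, so few of the positions are independent and these values are descriptions only. The highest ripple common to OGAP was at position -2310, where it stood 2.29% and 1.69% above its surroundings in KD OGAP and 0.926% and 1.25% in WT OGAP, and also 0.846% and 0.805% in KD input and 0.462% and 0.713% in WT input.

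Base composition also changed around gene starts. Composition was placed by RefSeq starts and coverage by the middle of the profile. RefSeq starts lay a median of 32 bp from the centres of the joined windows, with up to 500 bp allowed. Composition and coverage may therefore not line up exactly. On the coding strand of the joined RefSeq promoters, G or C made up 56.8% of bases from -250 to -201, 61.7% from -150 to -101, 65.6% from -50 to -1 and 64.2% from 0 to 49. G alone went up along the promoter, with 27.8% in the first of these stretches and 34.0% in the last. CpG steps per 100 numbered 5.44 in the first and 9.01 just before the start. Coverage in KD OGAP was 0.996 and 0.958 in the first stretch and 0.999 and 0.879 in the last, and in WT OGAP 0.891 and 0.879 in the first and 0.781 and 0.754 in the last. In KD input it was 1.117 and 1.091 in the first and 1.222 and 1.167 in the last, and in WT input 1.110 and 1.186 in the first and 1.237 and 1.376 in the last. Coverage was thus higher in the last stretch than in the first in all 4 inputs, while it was lower in both WT OGAP libraries and in the second KD OGAP library. All 4 inputs were higher from 0 to 49, at 64.2% G or C, than from -50 to -1, at 65.6%. Both stretches are shorter than a read and not much longer than the median offset of the starts. Whether coverage follows composition was not tested. The sequence also had narrow features. The share of G or C was lowest at position 2, at 43.2%, and was 47.4% at position 0, where A made up 51.3% of bases. It was 48.3% at -26, where TATA boxes lie in the promoters that have one. These features are much narrower than a read, which the roughness of the profiles puts at 115 to 131 positions, so coverage cannot resolve them.

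**Figure D4:**
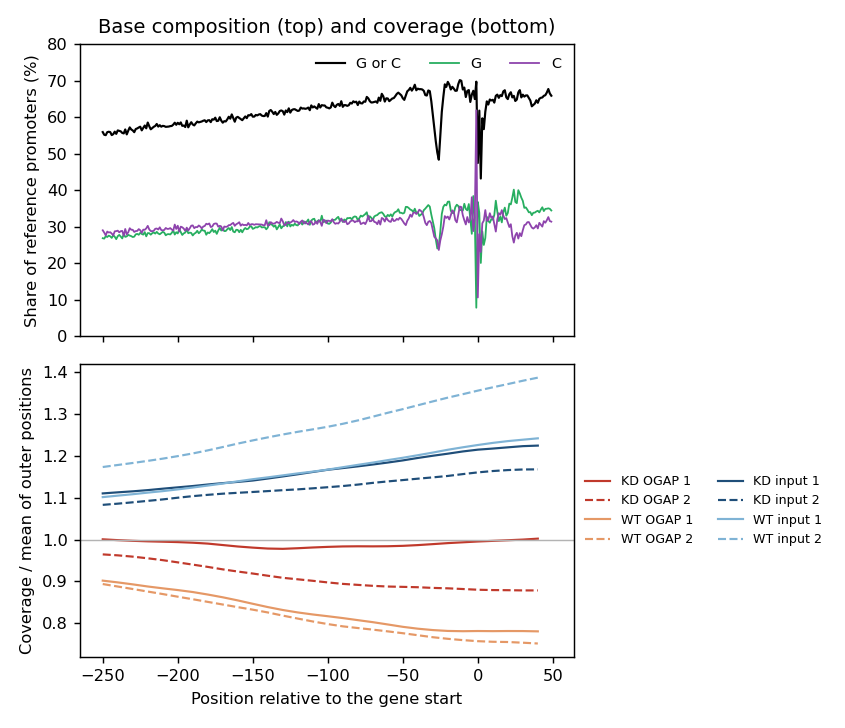
Share of bases in RefSeq promoters that are G or C, G, or C on the coding strand (upper panel, percent) and coverage level of the 8 libraries (lower panel, relative to the outer positions), against position. Positions count from the RefSeq start in the upper panel and from the middle of the profile in the lower. G or C content climbs to 65.6% in the 50 bases before the start, with coverage climbing in the inputs and going down in WT OGAP.

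Across promoters, the read counts were also set against base composition. The joined windows were ranked into 10 equal parts by the G or C content of their RefSeq promoter, with median contents between 39.3% and 79%. The content of the whole counted window, which is longer, was not taken. Mean reads per window in the top part over those in the bottom part were 1.25 and 1.08 in KD OGAP, 1.13 and 0.986 in WT OGAP, 1.72 and 1.53 in KD input, and 1.77 and 2.22 in WT input. The 4 inputs favoured G- and C-rich promoters in each library, the second WT input library the most, and the 4 OGAP libraries did so little or not at all. The OGAP libraries were instead highest in the fourth part, at a median content of 58.7%, where they reached 1.06 and 1.07 of their mean in KD and 1.17 and 1.15 in WT, against 0.960 and 0.966 in KD input and 0.974 and 0.930 in WT input. No test was made of these ratios, because no more than 54.9% of windows could be joined, and the part of base composition in the dip and the peak of the profile was not tested. Windows that overlap another, whose counts are uncertain, were 15.5% of those joined. They made up 4.28% of the bottom part, 18.2% of the fourth, 20.2% of the sixth and 11.5% of the top part.

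**Figure D5:**
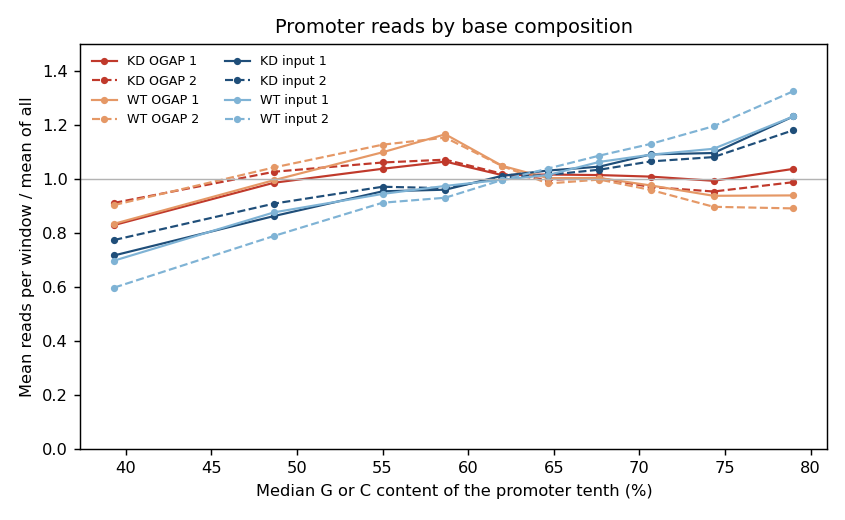
Mean promoter reads per window, relative to the mean over all joined windows of the same library (vertical axis), in 10 equal parts of promoters by G or C content (horizontal axis, median percent of each part). Inputs climb to 1.18 to 1.33 in the top part, and OGAP libraries stand at 0.891 to 1.04 there.

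The profile at gene ends, of the same length and scaled in the same way, was set beside that at starts. This comparison was chosen after the profiles at starts had been seen. The central level at ends was 0.961 and 0.928 in KD OGAP, 0.873 and 0.881 in WT OGAP, 1.011 and 1.008 in KD input, and 1.013 and 1.025 in WT input. In OGAP the central level at starts and at ends differed on average by 0.000133 (exact permutation p = 1), but the sign differed by state. Start minus end was 0.0465 and 0.00533 in KD OGAP, and -0.0121 and -0.0392 in WT OGAP. In input the start exceeded the end by 0.169 on average, in each of the 4 libraries (exact paired permutation p = 0.125, the smallest that 4 pairs allow). The start-minus-end difference itself was 0.169 lower in OGAP than in input (exact permutation p = 0.0286). Of the OGAP libraries, all but the first KD one thus dipped at both kinds of site. The mean input level over the central positions was well above 1 only at starts. Upstream of ends the inputs also rose, to 1.088 at position -489 and 1.071 at -330 in KD input. In WT input they rose to 1.093 at -385 and 1.133 at -383.

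Near asymmetry had opposite signs at starts and ends in every library but the first KD OGAP one. The near asymmetry at ends was 0.0164 and 0.0728 in KD OGAP, 0.144 and 0.143 in WT OGAP, -0.0949 and -0.0680 in KD input, and -0.0929 and -0.133 in WT input. At ends OGAP was therefore lower on the upstream side and input higher on it, and at starts WT OGAP was lower and input higher on the downstream side. The side in question is in both cases the one that faces the gene body. The start-minus-end difference was -0.126 in OGAP and 0.202 in input for the near asymmetry, and -0.103 in OGAP and 0.0980 in input for the far asymmetry, and OGAP differed from input in both (exact permutation p = 0.0286 each). The deepest points at ends were 0.895 at position 8 and 0.839 at -15 in KD OGAP, and 0.721 at -31 and 0.743 at -53 in WT OGAP. The first KD OGAP library, which had no dip at starts, thus had one at ends, the shallowest of the 4.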

How the data were processed

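OGAP-seq and input DNA of RPE1 cells was sequenced in 8 libraries, 2 in each of 4 groups. The deposited metagene table holds coverage signal, which the authors summed over genes for every position of a library. The deposited promoter table holds counts, whole numbers of reads in windows of 2001 bp. Per the submitters' processing notes, the build was hg38 and the tools included MACS2, featureCounts, bedtools and BWA 0.7.17-r1188. The sources used here do not give the genes summed, the spacing of positions or any extension of reads. If reads start independently, the roughness of a profile gives the span of a read in positions. Central coverage over promoter reads gives it in bp, if both tables hold the same genes and reads. Together they gave 0.989 to 1.11 bp per position in OGAP and 0.841 to 0.883 in input. The 2 ranges do not overlap, so the spacing was not settled and values are in positions. Library totals are not given either, and promoter reads stand in for depth.

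Profiles were divided by the mean of the outermost 1000 positions per side, and shapes were smoothed over 51 positions. Groups were compared with exact two-sided permutation tests over libraries (Python 3.11.15, numpy 2.4.6, pandas 2.3.3, scipy 1.17.1, matplotlib 3.10.9). The shape measures were checked on single simulated profiles, and no groups of libraries were simulated. The threshold was 0.05. Replicates differed beyond sampling noise over promoter windows, with a chi-square per window of 1.90 to 2.14, so none were merged. Promoter windows were joined to RefSeq starts within 500 bp on the same strand. Windows with several such starts, and starts shared by several windows, were left out. The example promoters are those nearest 3 percentiles of G or C content off chromosomes 8, X and Y. The members, measures and examples were chosen with earlier results of these data known. The test planned on promoter reads by base composition was left out, since too few windows could be joined. Alternatives were other outer stretches, centres, scales and smoothing, a replicate block and leaving out each library.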

Additional observations from a re-analysis of the deposited data

Results flagged for a closer look

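4 measures moved in opposite directions under NuMA depletion in pulled-down DNA and in input, with no library of a group overlapping the other. They come from the same profiles, and the near-start positions lie within the central ones, so they are not separate results. In input the separation was narrow: the central level was 1.164 in the first KD library and 1.168 in the first WT library. Per measure, the KD minus WT difference in OGAP exceeded that in input by 0.197 for the central level, 0.269 for the near-start level, 0.112 for the near asymmetry and 0.0723 for the far asymmetry. The exact permutation test of each excess gave p = 0.0556, the smallest the design allows, so none passed 0.05. The excess stayed positive when any 1 library was left out, at 0.143 to 0.251 for the central level. No library of the pooled OGAP or pooled input groups stood out from its group by Dixon's test on these measures.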

How the results depend on the processing

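Of 21 tested shape results, 4 changed sign, all under the same alternative. With the mean of all 6000 positions as the outer level, the shoulder level was higher in OGAP than in input by 0.0152, and the KD minus WT difference of the shoulder was -0.00729 in OGAP and 0.00354 in input, with an excess of -0.0108. That scaling puts the centre itself into the divisor. The share of the WT OGAP deviation within 500 positions was 60.2% with the outermost 500 positions per side, 55.3% with the upstream stretch alone and 68.9% with the downstream stretch alone. With smoothing over 25 or 99 positions, the extreme moved to 109 or 94 in the second WT OGAP library, to 127 or 95 in the first WT input library and to 105 or 121 in the second.

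Leaving out 1 library at a time gave OGAP minus input differences between -0.305 and -0.242 for the central level, -0.423 and -0.337 for the near-start level, -0.0668 and -0.0521 for the shoulder, -0.156 and -0.118 for the near asymmetry, -0.0927 and -0.0703 for the far asymmetry, and -0.0214 and -0.0163 for the outer asymmetry. All missed 0.05 because 3 against 4 libraries cannot reach it (0.0571). The counts of positions without overlap lay between 1116 and 1560 for KD OGAP below WT OGAP, 2744 and 4044 for KD input below WT input, and 909 and 1433 for KD input above WT input.

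With the replicate block the differences were -0.273, -0.377, -0.0598, -0.137, -0.0794 and -0.0191 in the same order, each with an exact permutation p of 0.125, the smallest for 4 pairs. Deviations of same-numbered libraries correlated at 0.553 to 0.846 between KD OGAP, WT OGAP and KD input, but at -0.935 to -0.631 between each of these and WT input. The labels do not say that a number marks a shared culture, batch or day, and the correlations do not all have 1 sign, so pairing was not established. With the block the excess of the KD difference could not give an exact p below 0.5.

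Depth limits single positions to 0.538 to 0.715% counting error, which does not cover the spread between libraries. The shoulder is a mean over many positions, so that error does not apply to its differences of -0.00729 and 0.00354. Their own counting error was not worked out. With 2 libraries a group, the smallest exact p of a KD against WT comparison is 0.333.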

Other observations

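The 13 promoter windows on mitochondrial DNA held 2.20% and 2.03% of promoter reads in KD OGAP and 2.23% and 2.34% in WT OGAP, against at least 2.50% in every input library. The share was lower in each OGAP library than in each input. Whether mitochondrial genes are among those summed in the profile is not given in the sources used here.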
